A study of Rattus norvegicus with 15 samples.

Results

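A group of 5 genes of brain glia, out of 22050 Ensembl gene IDs counted in the series, was followed through ribosome footprints of the pelleted, RNA granule-containing fraction and through RNA of the starting homogenate. They were chosen by identifier, with earlier results of these data known. Gfap (ENSRNOG00000002919) and Vim (ENSRNOG00000018087) encode intermediate filament proteins. Mbp (ENSRNOG00000016516) encodes myelin basic protein. Slc1a2 (ENSRNOG00000005479, also called GLT-1) and Slc1a3 (ENSRNOG00000016163, also called GLAST) encode glutamate transporters. The names came with the list of identifiers and could not be checked, since neither the count table nor the gene table used here pairs Ensembl IDs with symbols. For the same reason no marker genes of other cell types were matched, and the cell types behind the counts were not tested.

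The tissue was whole brain of the Sprague Dawley strain of rat, taken on postnatal day 5, with 5 brains in each homogenate. The buffer held 150 mM NaCl throughout, except that the salt group's resuspended pellet was held for a time in 400 mM NaCl before RNase I digestion. Cycloheximide, a drug that stops translating ribosomes on the mRNA, was in the homogenisation buffer at 100 ug/ml in the cycloheximide group and absent from the vehicle group. There were 5 vehicle, 3 cycloheximide and 2 salt footprint libraries, and 5 RNA libraries labelled as control. Each was counted as 1 replicate after its title. The labels do not say that they came from separate homogenates, so the p-values measure the spread between these libraries, which may be technical. Whole brain mixes neurons, glia and vessels, so fewer cells of a type and less RNA per cell cannot be told apart.

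A footprint is the stretch of mRNA that a ribosome shields from nuclease, so a footprint count follows the ribosomes on a message rather than the message alone. Glia are the non-neuronal cells that support, feed and insulate neurons. Astrocytes take up released glutamate through the transporters of Slc1a2 and Slc1a3 and hold a cytoskeleton of vimentin, joined by glial fibrillary acidic protein as they mature. Oligodendrocytes wrap axons in myelin, and their Mbp mRNA is a textbook case of an mRNA carried in granules along cell processes and translated at the site of myelination. Whether such messages occur among the ribosomes that sediment to the pellet is the question the footprints address.

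Levels are given as CPM, a gene's count divided by the library total and multiplied by 1000000. CPM is not divided by gene length, so each gene's CPM is compared with itself across libraries and not with that of other genes. Footprints come from the stretches that ribosomes shield, and no correction was made for how much of each message is translated. Footprint to RNA ratios, and their places among all genes, carry this limit. The libraries fall into sets that differ in depth. Set A holds vehicle footprints 1 to 3, cycloheximide footprints 1 to 3 and RNA 1 to 3, with 19223750 to 53645452 counts each. Set B holds vehicle footprints 4 and 5, salt footprints 1 and 2 and RNA 4 and 5, with 941546 to 2808669 counts each. A single gene, which is not among the glial genes, took 5.17% to 13.5% of the counts of the set B footprint libraries and at most 0.632% in set A. This lowers the CPM of all other genes in the set B footprints, also against set B RNA, where that gene took at most 0.0151%. Comparisons were made within a set because the sets differ in depth. The effect of the dominant gene remains in the CPM values of set B.

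All 5 glial genes were counted in all 15 libraries. The lowest count was 32, for Slc1a2 in salt footprint 2, or 27.6 CPM (95% Wilson interval 19.6 to 39.0), against a floor of 3 counts. That floor equals 0.0559 to 3.19 CPM depending on the library. Together the 5 genes took 0.0815% to 0.114% of the counts in the 10 footprint libraries and 0.0498% to 0.0751% in the 5 RNA libraries. Vim was the largest part of each sum, with 31685 of 53159 counts in vehicle footprint 3 and 7348 of 19544 in RNA 3. The sums therefore do not describe the other genes. Reads of all 5 genes were thus present in the footprint libraries of the pelleted fraction with vehicle, with cycloheximide and with salt. Read length, reading frame and place in the message were not examined, so other RNA fragments were not told from ribosome footprints. Of the 22044 genes with a value in every library, 19916 had a count in at least 1 library. The share above the floor in every library was not counted, so presence cannot be called particular to these genes.

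**Figure D1:**
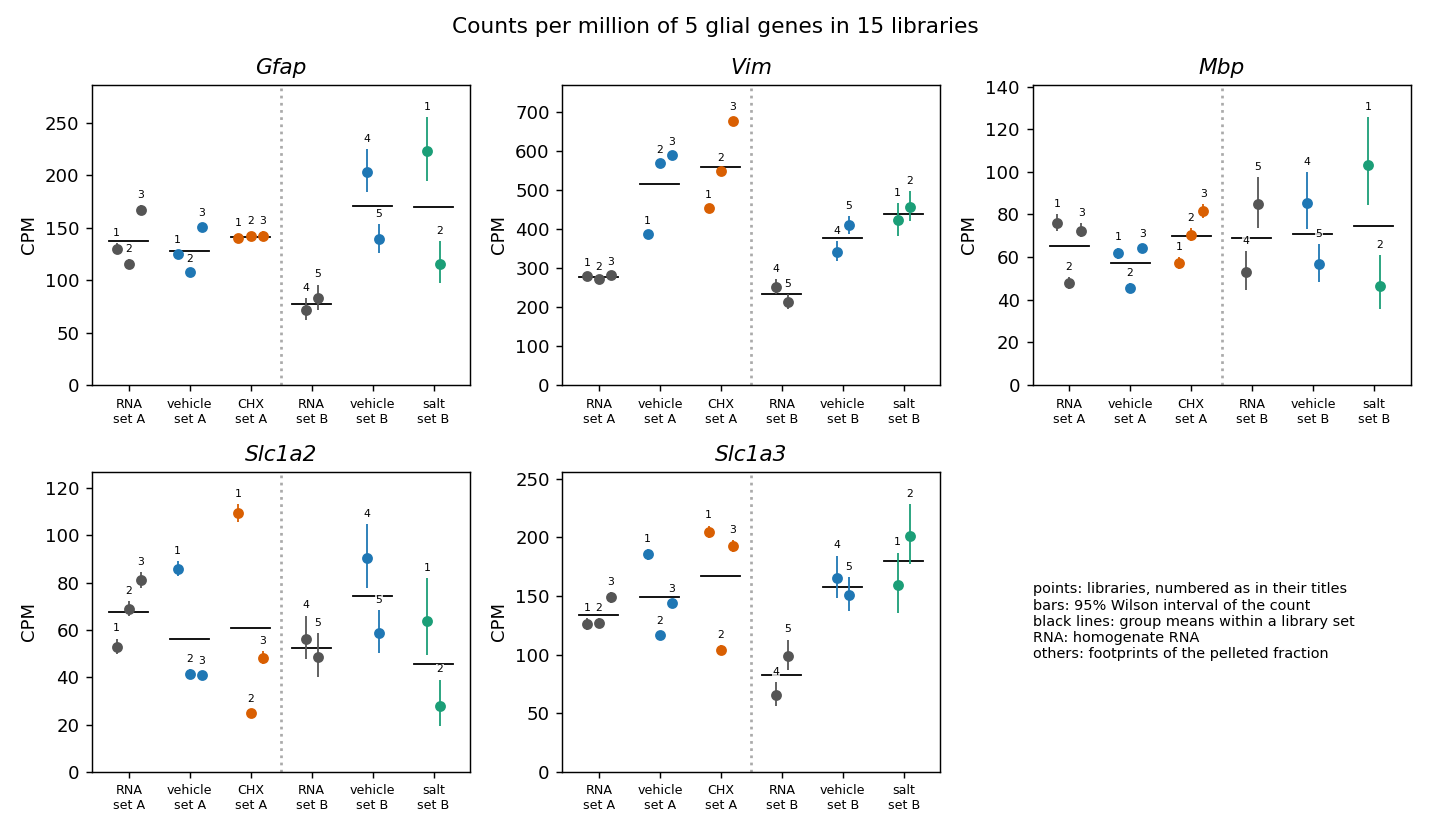
Level of each glial gene in CPM (vertical axis, from 0) in the 15 libraries, by group and library set (horizontal axis, CHX for cycloheximide). Points are libraries with 95% Wilson intervals of the count and black lines are group means. Vim footprints lie at 342 to 678 CPM, above all RNA libraries at 214 to 282, while Mbp footprints and RNA overlap.

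Vehicle footprints were then set against homogenate RNA, which asks whether each glial message held more or fewer footprints in the pelleted fraction than its RNA level. The fitted value is the log2 ratio of footprints to RNA from edgeR's quasi-likelihood test, scaled by TMM (a factor per library that centres the bulk of genes), and a gene was called at a Benjamini-Hochberg adjusted p under 0.05. In set A, Vim and Slc1a3 were called and both were higher in footprints. That is 2 of 5 genes, where 22.0% of all 15335 genes tested were called higher and 29.3% lower. Gfap was called higher in set B, 1 of 5, where 1.61% of 11642 genes were called higher and 2.18% lower. The number of genes called in set B, 441, moved to 254 without RNA 4, 1585 without vehicle footprint 4 and 3002 without vehicle footprint 5. No glial gene was called lower in either set. All 5 log2 ratios were positive in both sets under TMM, and they lay above those of 66.5% to 96.4% of all genes in set A and of 66.8% to 96.0% in set B.

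The sign of a small ratio rests on the scaling. With total counts only, the median log2 ratio of all genes moved from -0.18 to -0.74 in set A, and from -0.08 to -0.33 for set B. The share of called genes that were higher moved from 42.9% to 14.6% in set A and from 42.4% to 15.2% in the other set. Relative to the median gene, the glial genes kept their places: Gfap stood 0.63 above it in set A with TMM and 0.64 above it with total counts. The CPM values given next are scaled by total counts, so a gene can have equal CPM in both kinds of library and still a positive TMM ratio.

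Vim, the filament gene of radial glia, young astrocytes and vessel cells, was higher in footprints than in RNA throughout. Its RNA level was 279, 271 and 282 CPM in RNA 1 to 3, and its vehicle footprints of set A had 388, 570 and 591 CPM. In set B the RNA libraries 4 and 5 had 252 and 214 CPM and the vehicle footprints 4 and 5 had 342 and 410 CPM. Every vehicle footprint library was above every RNA library, also across the sets, a pattern found in 2.48% of 14347 genes tested over all 10 libraries. In set A, where 10.7% of genes had footprints wholly above RNA, the RNA level varied little, at 277 ± 5.81 CPM (SD, n = 3). Footprints varied more, at 516 ± 112 CPM (SD, n = 3), with vehicle footprint 1 the lowest.

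The log2 ratio of Vim was 1.46 in set A (SE 0.21, 95% interval 0.99 to 1.93, edgeR adjusted p 0.000431), higher than in 96.4% of all genes. With total counts only it was 0.90 (edgeR adjusted p 0.00329), so Vim was the glial gene whose call in set A held under each scaling. In set B its ratio was 0.94 (SE 0.24, edgeR adjusted p 0.0688), not a call. There it passed with DESeq2 (adjusted p 0.00729) or without the filter on low counts (edgeR adjusted p 0.00975). Without vehicle footprint 4 the edgeR adjusted p in set B was 0.000409, and without vehicle footprint 5 it was 0.0331. Without RNA 4 it was 0.165 and without RNA 5 it was 0.332 by the same edgeR test, no call in either.

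Gfap, the filament gene of maturing astrocytes, was called in set B and not in set A, and the difference between the sets was itself not a call. RNA 1 to 3 had 130, 116 and 167 CPM and vehicle footprints 1 to 3 had 125, 107 and 151 CPM. These groups overlapped, and in each same-numbered pair the footprint CPM was slightly below the RNA CPM, at 0.961, 0.927 and 0.906 of it. In set B, RNA 4 and 5 had 71.8 and 83.0 CPM, while vehicle footprints 4 and 5 had 203 and 139 CPM, with no overlap. Of all genes tested in set B, 15.0% had footprints wholly above RNA in this way.

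In set A the log2 ratio of Gfap was 0.45 (SE 0.21, 95% interval -0.02 to 0.92, edgeR adjusted p 0.0974), and it turned to -0.11 with total counts only. It was called in set A with DESeq2 (0.53, adjusted p 0.0432), without vehicle footprint 1 (0.62, edgeR adjusted p 0.0240) or without RNA 3 (0.66, edgeR adjusted p 0.0305). In set B the log2 ratio was 1.38 (SE 0.29, 95% interval 0.73 to 2.04, edgeR adjusted p 0.0374), higher than in 96.0% of genes. That call was lost with total counts only (edgeR adjusted p 0.0746), without RNA 4 (0.187) and without RNA 5 (0.0654). That difference, tested as an interaction over all 10 libraries, was 0.88 (SE 0.36, 95% interval 0.11 to 1.65, edgeR adjusted p 0.180). Of 16191 genes, 2.47% were called in that test. On the CPM scale the footprint means were 128 and 171 in sets A and B, and the RNA means 137 and 77.4.

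Mbp, the myelin gene whose mRNA travels in granules, overlapped in CPM between pelleted footprints and RNA. Counts are per gene, so the transported mRNA was not told apart from any other transcript of Mbp. Its RNA libraries 1 to 3 had 76.1, 47.7 and 72.4 CPM, and vehicle footprints 1 to 3 had 61.7, 45.6 and 64.1 CPM. RNA 4 and 5 had 52.9 and 84.7 CPM, and vehicle footprints 4 and 5 had 85.5 and 56.6 CPM. The overlap was present in both sets, and library 2 was the lowest of set A in footprints and in RNA alike. RNA libraries were spread as widely, with 66.8 ± 15.8 CPM (SD, n = 5), as vehicle footprint libraries, with 62.7 ± 14.6 CPM (SD, n = 5).

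For Mbp the log2 ratio was 0.36 in set A (SE 0.23, 95% interval -0.14 to 0.86, edgeR adjusted p 0.201) and 0.29 in set B (SE 0.38, 95% interval -0.58 to 1.15, edgeR adjusted p 0.731). It turned to -0.19 in set A with total counts only, and in set B to -0.0046 without RNA 4. Neither set gave a call, and the interval in set A excludes a log2 ratio of 1 (a doubling), whereas the interval in set B does not. Mbp stood above 69.6% of all genes in set A and 66.8% for set B, where it had the lowest place of the glial genes. Set B less set A, its ratio differed by -0.12 (SE 0.42, edgeR adjusted p 0.952).

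Slc1a3, the transporter gene of radial glia and astrocytes, was higher in footprints in set A by the test although its CPM values overlapped. RNA 1 to 3 had 126, 127 and 149 CPM and vehicle footprints 1 to 3 had 185, 117 and 144 CPM. Vehicle footprint 1 was the highest and vehicle footprint 2 the lowest of these 6 libraries. In set B the RNA libraries had 65.5 and 98.9 CPM and the vehicle footprints 165 and 151 CPM, without overlap. Footprints lay wholly above RNA there in 15.0% of all genes tested.

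The log2 ratio of Slc1a3 was 0.71 in set A (SE 0.20, 95% interval 0.26 to 1.15, edgeR adjusted p 0.0139), above 81.0% of all genes. The call was lost with total counts only (0.15, edgeR adjusted p 0.529) and without RNA 2 (0.66, edgeR adjusted p 0.0631). In set B the log2 ratio was 1.19 (SE 0.29, 95% interval 0.52 to 1.86, edgeR adjusted p 0.0638), above 94.1% of genes. It was called there with DESeq2 (adjusted p 0.0126), without the filter on low counts (edgeR adjusted p 0.00779), and without vehicle footprint 4 (0.00372) or 5 (0.00880). It was not called without RNA 4 (edgeR adjusted p 0.497) or without RNA 5 (0.0645).

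Slc1a2, the main glutamate transporter of mature astrocytes, varied most between footprint libraries. In RNA 1 to 3 it had 53.0, 68.8 and 81.0 CPM, and in vehicle footprints 1 to 3 it had 85.8, 41.4 and 41.0 CPM. Among these 6 libraries vehicle footprint 1 was the highest, and RNA 1 was the lowest of the 3 RNA libraries, so the same-numbered ratio of CPM was 1.62 in pair 1 but 0.601 and 0.506 in pairs 2 and 3. RNA 4 and 5 had 56.0 and 48.6 CPM, and vehicle footprints 4 and 5 had 90.2 and 58.7 CPM, without overlap in set B. Such a lack of overlap, with footprints higher, was seen in 15.0% of all genes tested in that set.

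The log2 ratio of Slc1a2 was 0.28 in set A (SE 0.30, 95% interval -0.40 to 0.96, edgeR adjusted p 0.469) and 0.74 in set B (SE 0.37, 95% interval -0.09 to 1.58, edgeR adjusted p 0.302). In set A it turned to -0.27 with total counts only and to -0.0034 without vehicle footprint 1. In set B it was called without vehicle footprint 5 (0.98, edgeR adjusted p 0.0490). The SD of log2(CPM + 1) over vehicle footprints 1 to 3 was 0.60, larger than in 93.1% of the 8292 genes with at least 10 CPM there, whose median was 0.23.

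A fit over all 10 libraries with the set as a covariate called 3 of the 5 genes higher in footprints, where 16.1% of 14347 genes were called higher. Vim had a log2 ratio of 1.31 (edgeR adjusted p 0.000307), Slc1a3 of 0.94 (0.00181) and Gfap of 0.86 (0.00839). Over these libraries the CPM of footprints and RNA overlapped for Slc1a3 and Gfap, but not for Vim. This fit was not run with total counts only, under which Slc1a3 lost its call in set A and Gfap its call in set B. Slc1a2 at 0.49 (edgeR adjusted p 0.123) and Mbp at 0.38 (0.184) were not called. The difference between sets was not called for any of the 5 genes, with edgeR adjusted p of 0.180 to 0.952.

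**Figure D2:**
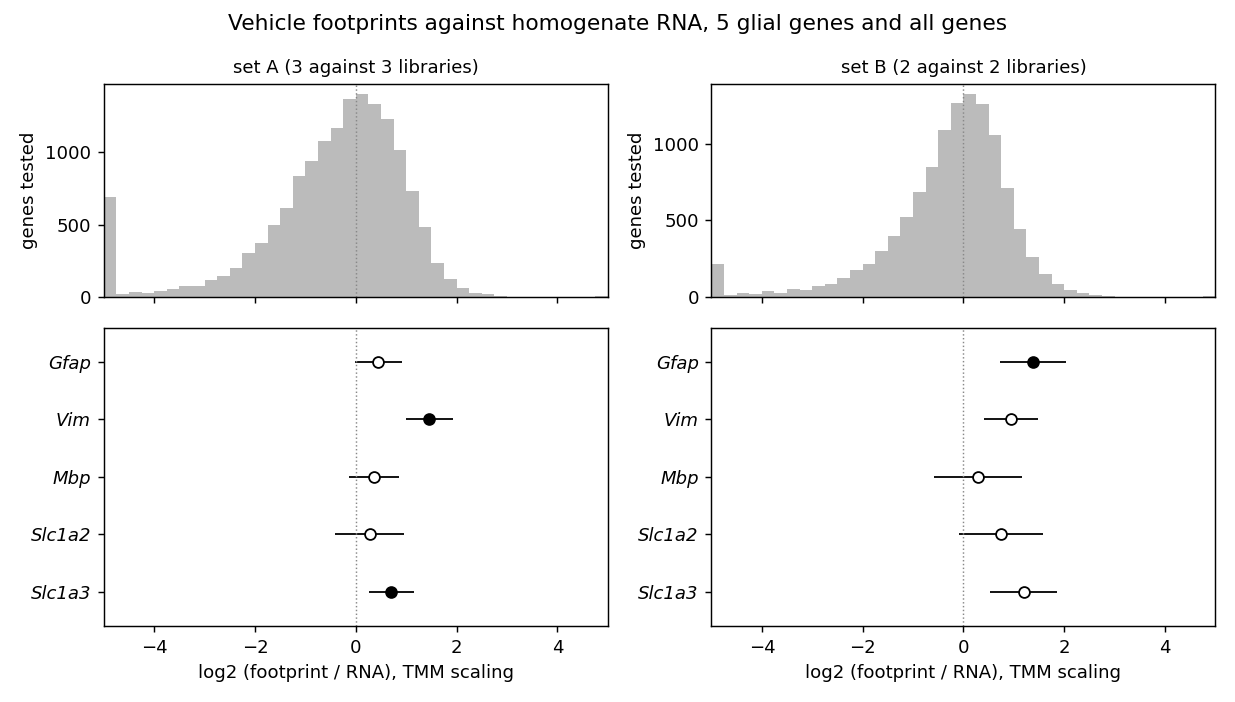
Upper panels show how many genes (vertical axis) had each log2 footprint to RNA ratio (horizontal axis, TMM scaling, values beyond 5 gathered in the end bars) in set A and set B. Lower panels show the glial genes with 95% intervals, filled where the adjusted p was under 0.05; all 5 lie to the right of 0, from 0.28 to 1.46 in set A and from 0.29 to 1.38 in set B.

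Ratios of 2 genes within a library need no scaling between libraries and were used to see whether glial genes moved together. The Gfap to Vim count ratio was 0.466, 0.427 and 0.590 in RNA 1 to 3 and 0.322, 0.188 and 0.256 in vehicle footprints 1 to 3, lower in each footprint library. In set B it was 0.285 and 0.388 in RNA 4 and 5 and 0.593 and 0.339 in vehicle footprints 4 and 5, with overlap. Footprints differed from RNA by -0.97 (log2) in set A and 0.43 in set B, opposite directions. Over all 10 libraries the difference was -0.41 (exact two-sided permutation p 0.25 within sets, adjusted 0.25 over 2 tests, smallest possible p 0.0167).

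Between the transporters, the Slc1a2 to Slc1a3 count ratio was 0.420, 0.542 and 0.544 in RNA 1 to 3 and 0.463, 0.354 and 0.284 in vehicle footprints 1 to 3. RNA 4 and 5 had 0.855 and 0.491, and vehicle footprints 4 and 5 had 0.546 and 0.389. The footprint mean was lower by a similar amount in both sets, with log2 differences of -0.47 and -0.49, but the groups overlapped in both. Over all libraries the difference was -0.48 (exact two-sided permutation p 0.0667, adjusted 0.133), which did not pass the threshold.

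The Gfap to Mbp count ratio, between genes of different glial lineages, had a similar range in footprints and in RNA 1 to 3. It ranged from 2.02 to 2.45 over the 5 vehicle footprint libraries, from 1.74 to 2.45 with cycloheximide and was 2.16 and 2.48 with salt. In RNA it was 1.71 to 2.43 in libraries 1 to 3 and 1.36 and 0.979 in libraries 4 and 5, the lowest values of all. This ratio was picked after the values were seen and was not tested.

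**Figure D3:**
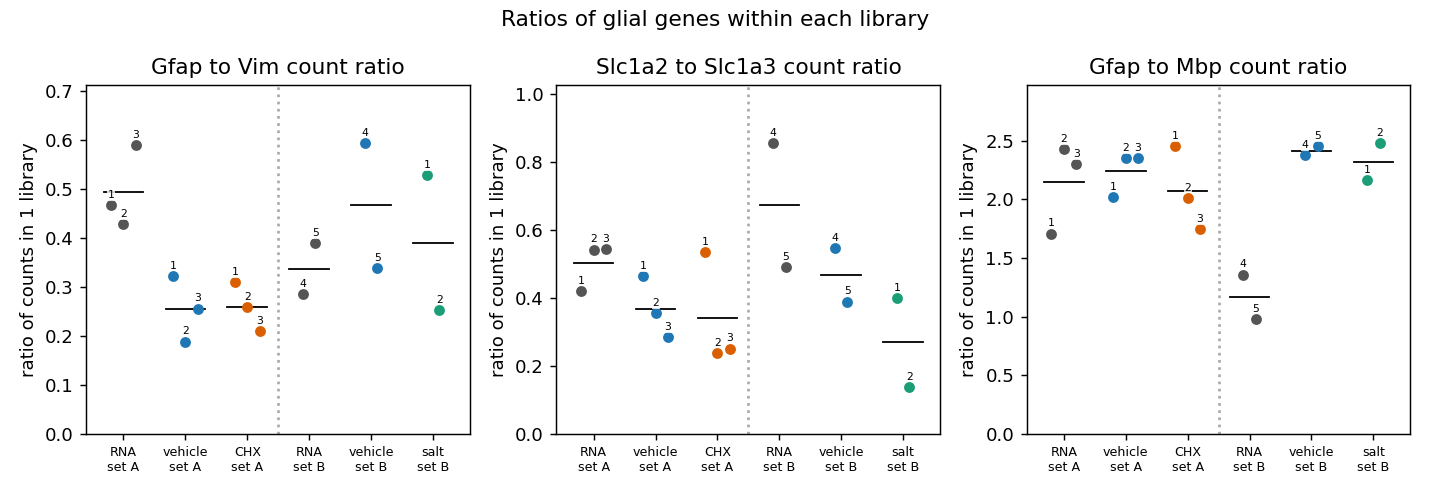
Count ratios of Gfap to Vim, Slc1a2 to Slc1a3 and Gfap to Mbp (vertical axes, linear from 0) in each library, by group and library set (CHX for cycloheximide). Points are libraries and black lines are means; Gfap to Vim is lower in footprints than in RNA in set A and overlaps in set B, and Gfap to Mbp is lowest in RNA 4 and 5.

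The cycloheximide comparison asked whether stopping elongation during homogenisation changed the footprints of glial messages in the pellet. None of the 5 genes was called, and edgeR called 0 of 13871 genes (0%), with 70 genes at an unadjusted p under 0.05. Those 70 are 0.505% of the genes, fewer than that threshold passes when nothing differs. This edgeR fit, which ignores any pairing of libraries, was therefore conservative. DESeq2 also called 0, with 86 genes at an unadjusted p under 0.05. The groups overlapped in CPM for all 5 glial genes, while 3.51% of all genes showed no overlap.

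Gfap had 140, 142 and 142 CPM in cycloheximide footprints 1 to 3, within the vehicle range of 107 to 151. These are among the closest replicates in the table, with an SD of log2(CPM + 1) below that of all but 0.276% of 8343 genes. Vim had 453, 549 and 678 CPM, against 388 to 591 with vehicle. Mbp had 57.1, 70.4 and 81.5 CPM against 45.6 to 64.1, the gene with the largest fitted difference of the 5.

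The fitted log2 difference of Mbp was 0.25 (SE 0.20, 95% interval -0.20 to 0.71, edgeR adjusted p 1.00). For Gfap it was 0.11 (95% interval -0.25 to 0.48) and for Vim 0.08 (-0.44 to 0.60). All 3 intervals exclude a doubling or a halving of the footprints.

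Slc1a2 had 110, 24.7 and 48.3 CPM in cycloheximide footprints 1 to 3, a 4.43-fold range. Its SD of log2(CPM + 1) was 1.05, larger than in 99.0% of genes. Slc1a3 had 205, 104 and 193 CPM in the same libraries. For each transporter, cycloheximide footprint 1 was the highest and cycloheximide footprint 2 the lowest library of set A. Slc1a2 was also highest in number 1 among the vehicle footprints, at 85.8 CPM, and so was Slc1a3 at 185 CPM.

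The log2 difference with cycloheximide was 0.08 for Slc1a2 (SE 0.53, 95% interval -1.14 to 1.31) and 0.13 for Slc1a3 (SE 0.28, -0.51 to 0.78). With same-numbered libraries treated as pairs, Slc1a2 gave -0.07 (95% interval -0.51 to 0.37) and Slc1a3 0.10 (-0.15 to 0.35), so the intervals narrowed and the sign of Slc1a2 turned. Of these pairs, only number 1 was matched best by its own number across genes. The pairing called 0 of 13871 genes, with 658 at an unadjusted p under 0.05. Within pairs, Slc1a2 CPM with cycloheximide was 1.28, 0.597 and 1.18 of the vehicle value, higher in 2 of 3.

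The salt comparison asked whether raising NaCl before digestion changed which glial footprints stayed with the pelleted ribosomes. None of the 5 genes was called, and edgeR called 0 of 9803 genes (0%), with 185 at an unadjusted p under 0.05. Those 185 are 1.89% of the genes, again fewer than that threshold passes when nothing differs, so this fit was conservative too. DESeq2 called 0 as well, with 170 at an unadjusted p under 0.05. With 2 shallow libraries in each group, intervals were wide.

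Vim had 423 and 457 CPM with salt and 342 and 410 CPM with vehicle. The groups did not overlap, as was so for 14.2% of all genes in that direction. Its log2 difference was 0.23 (SE 0.25, 95% interval -0.29 to 0.76, edgeR adjusted p 1.00).

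Gfap had 223 and 116 CPM with salt against 203 and 139 with vehicle, and Mbp had 103 and 46.6 CPM against 85.5 and 56.6. Both genes were high in salt footprint 1 and vehicle footprint 4 and low in salt footprint 2 and vehicle footprint 5. Their log2 differences were -0.0013 (SE 0.34, 95% interval -0.71 to 0.71) and 0.09 (SE 0.46, -0.86 to 1.03). The interval of Gfap excludes a doubling, and that of Mbp does not.

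Slc1a2 had 63.7 and 27.6 CPM with salt against 90.2 and 58.7 with vehicle, from 60 and 32 against 171 and 165 counts. Its log2 difference of -0.70 (SE 0.50, 95% interval -1.73 to 0.34, edgeR adjusted p 1.00) was the largest of the glial genes and lower than in all but 12.8% of genes. The groups overlapped through salt footprint 1. The difference was -1.42 without salt footprint 1, -0.20 without salt footprint 2 and -0.42 without vehicle footprint 4. Slc1a3 had 159 and 201 CPM with salt against 165 and 151, a log2 difference of 0.20 (SE 0.31, 95% interval -0.44 to 0.84). No difference between salt and vehicle was detected for any of the 5 genes.

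**Figure D4:**
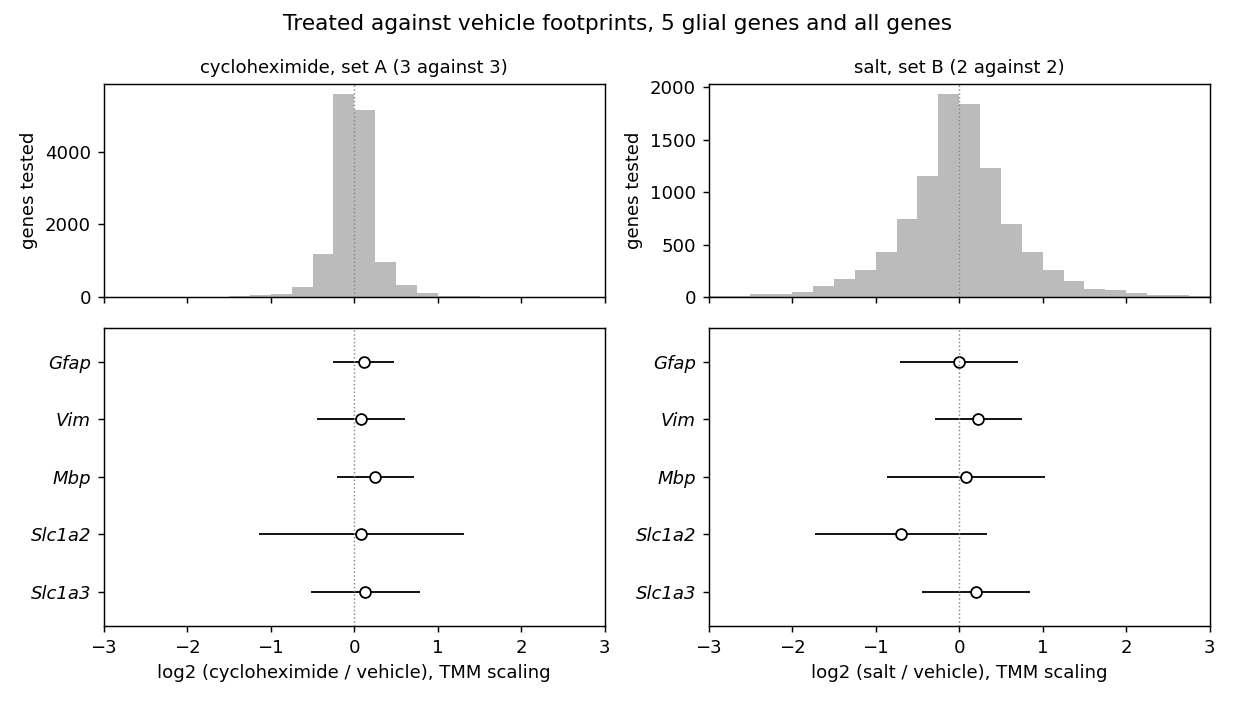
Upper panels show how many genes (vertical axis) had each log2 difference from vehicle footprints (horizontal axis, TMM scaling, from -3 to 3) for cycloheximide in set A and salt in set B. Lower panels show the glial genes with 95% intervals, open because none was called; every interval crosses 0, and Slc1a2 has the widest, -1.14 to 1.31 with cycloheximide and -1.73 to 0.34 with salt.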

How the data were processed

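The authors deposited 1 table of raw read counts per Ensembl gene ID, with 22050 genes and 15 columns matched to samples by title. The submitters' processing notes name CASAVA, cutadapt 2.8, Bowtie2 2.3.5, STAR 2.7.3a, deepTools and the build Rnor_6.0. The counting program, annotation and strand setting are not given in the sources used here. In 6 genes the cells of 9 libraries are empty. This defined set A and set B, and the 22044 complete genes were used. In the RNA libraries 88.4% to 97.7% of nonzero counts are even (48.6% to 50.1% in footprints), as when both mates of a pair are counted, so a fit with RNA counts halved was tried.

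Tests used edgeR 4.0.16 in R 4.3.3 (TMM, filterByExpr, robust quasi-likelihood F-test, p-values adjusted over all genes tested), within a set and without a replicate block. The SE is the size of the log2 value over the square root of its F statistic. DESeq2 1.42.0 and other settings were alternatives, and the edgeR fits and ratio tests were tested on simulated data. Exact permutation tests and figures used Python 3.11.15 with scipy 1.17.1 and matplotlib 3.10.9. Wilson intervals and floors cover counting error only, since no molecular identifiers mark separate molecules. They were computed on the counts as given, so the intervals of the RNA libraries are too narrow if both mates were counted.

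Deviations from the group means correlated between same-numbered cycloheximide and vehicle libraries over 12018 genes (0.84, 0.46 and 0.44). Only number 1 was matched best by its own number, and cycloheximide 2 and 3 each correlated best with the other's number. In groups of 3, a shared departure of number 1 alone makes the deviations of 2 and 3 correlate whatever their numbering. These correlations therefore do not show that numbers 2 and 3 are pairs. The numbers, which come from the titles, were taken as pairs there in an alternative fit only, while the main fit stayed unpaired. The genes and lists were chosen with earlier results of these data known. The naming rule covered the 5 genes, members of 11 marker lists and genes most alike in pattern. The lists hold symbols, none of which could be matched to an ID here, so no other gene was named.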

Additional observations from a re-analysis of the deposited data

Results flagged for a closer look

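Vehicle footprint 1 stood apart from the other 4 vehicle footprint libraries in the Gfap to Mbp count ratio, at 1.02 on the log2 scale, while the others lay between 1.23 and 1.29. The distance of its value from the nearest library was large for the range of the group. The vehicle and RNA libraries were examined in this way for 16 sets of values, in which chance gives about 0.8 such libraries. The cause was not tested.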

How the results depend on the processing

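Limits came from depth and from the number of libraries: set B holds 2 libraries a group, and leaving out 1 of them assumes that the lone library varies like the other group. The causes of the changes below were not tested. Over the alternatives, 250 of 305 values of the glial genes stayed on the same side of 0 and of the threshold. All 24 values of the Gfap to Vim and Slc1a2 to Slc1a3 ratios stayed below 0 and uncalled. With a library left out, these ratios were -0.64 to -0.23 and -0.59 to -0.32. The smallest possible permutation p was 0.0333 there before adjustment over 2 tests, which left little room for a call. With signs flipped within same-numbered pairs it was 0.0625, so no call was possible. Staying uncalled in those settings therefore says little about stability.

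In set A, total counts only gave -0.11 for Gfap, -0.19 for Mbp, -0.27 for Slc1a2 and 0.15 for Slc1a3, and DESeq2 gave 0.53 for Gfap. In set B, total counts only gave 1.14 for Gfap. No filter gave 1231 calls, with Vim at 0.94 and Slc1a3 at 1.19, and DESeq2 gave 974 calls, with 0.97 and 1.22. The replicate block gave 838 calls in set B, with Slc1a3 at 1.22, against 441 without it. Same-numbered footprint and RNA libraries had a correlation of -0.05 there. With 2 libraries a group this value is the same for both numbers by construction, so it says little about pairing. Halved RNA counts changed no call of a glial gene.

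Over all 5 against 5 libraries 3999 genes were called without the set (Gfap 0.84, Vim 1.34, Slc1a3 0.92), 4888 with it as covariate (0.86, 1.31, 0.94) and 3520 with the replicate block (0.86, 1.28, 0.94), against 7869 in set A. Same-numbered footprint and RNA libraries of set A did not deviate together (correlations -0.21, 0.09 and -0.13), and no library had its own number as its best match. The block in set A gave 7088 calls and changed no call of a glial gene.

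The replicate block turned Slc1a2 to -0.074 with cycloheximide and changed no other direction or call of a glial gene there. All 5 vehicle libraries gave -0.046 for Gfap and -0.068 for Slc1a2 with cycloheximide, and 0.25 for Gfap and -0.043 for Vim with salt. With salt, RLE factors gave 0.0026 and DESeq2 0.0030 for Gfap, and no filter gave 2 calls. No paired analysis was possible for salt within set B because its libraries share no number with the vehicle libraries there. For the difference between sets (400 calls), DESeq2 gave 1600 calls, and Mbp was 0.038 with it and 0.038 with RLE factors.

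Leaving out each library in turn gave, in set A, 6254 to 9434 calls, Gfap at 0.33 to 0.66, Slc1a2 at -0.0034 to 0.51 and Slc1a3 at 0.66 to 0.90. In set B it gave 254 calls (without RNA 4) to 3002 (without vehicle footprint 5), with 1585 without vehicle footprint 4. Gfap was 1.19 to 1.59, Vim 0.75 to 1.16, Mbp -0.0046 to 0.65, Slc1a2 0.51 to 0.98 and Slc1a3 0.94 to 1.50. With cycloheximide Vim was -0.091 to 0.23, Slc1a2 -0.62 to 0.52 and Slc1a3 -0.014 to 0.38. With salt there were 0 to 19 calls, Gfap at -0.55 to 0.40, Mbp at -0.60 to 0.56 and Slc1a2 at -1.42 to -0.20. For the difference between sets there were 37 to 3031 calls, and Mbp was -0.35 to 0.27. Leaving the dominant gene out of library totals moved 2 of 30 mean CPM values by more than 1 SD, Slc1a3 in set B vehicle footprints to 174 and Vim in salt footprints to 492.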
